A study of Rattus norvegicus with 12 samples.

Results

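Solute carriers are the membrane proteins that move ions, sugars, amino acids, vitamins, metals, nucleosides and metabolites across cell and organelle membranes, and their gene symbols carry the family number after Slc. The members described here are the probe sets of the array that name a single gene whose symbol starts with Slc and a digit, without Slc2a1, Slc2a4, Slc16a1, Slc8a1, Slc27a1, Slc25a4, Slc25a5 and Slc25a20. There were 166 such probe sets of 8740, and they named 112 of the 4736 genes named by a single symbol and fell into 37 Slc families. In a study of the heart's growth under exercise, gene expression was measured in total RNA of the left ventricle of the rat (Rattus norvegicus), in 6 samples taken after 7 weeks of treadmill running (exercised 1, 4, 5, 7, 8 and 9) and 6 from sedentary animals (13, 16, 17, 21, 23 and 24), with a single-channel array per sample. The labels give no strain, age, sex, genotype, running schedule or time since the last run, and leave unsaid whether the sample numbers stand for separate animals, so a p-value here reflects only the spread between these samples. Intensities are on the linear scale of the authors' table. Each difference is the exercised less the sedentary mean of log2(intensity + 363), a scale on which changes of dim probe sets come out too small.

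In the heart, solute carriers of the plasma membrane set the pH and chloride of the myocyte and bring in creatine, taurine, carnitine and amino acids. Those of family 25 span the inner mitochondrial membrane and carry phosphate, citrate, oxoglutarate and cofactors between matrix and cytosol. Others belong to cells that share the ventricle with the myocyte, such as the anion exchanger of red cells, the iron exporter of macrophages and the noradrenaline transporter of sympathetic nerve endings. In bulk tissue, fewer cells of a type and less RNA per cell cannot be told apart.

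A probe set was tested when its mean intensity exceeded 434, a limit that 25% of the array's probe sets did not reach. This left 125 member probe sets for 90 genes, while 41 probe sets, among them every probe set of 22 genes, were too dim to be tested. Just inside the limit were Slc34a1 (probe set rc_AI105198_i_at, mean intensity 435) and a probe set of Slc1a1 (438), and just outside it another probe set of Slc1a1 (427) and a probe set of Slc1a3 (422). The untested genes included the glial glutamate carrier Slc1a3, the liver glucose transporter Slc2a2, the kidney cotransporter Slc12a1, the sodium-proton exchangers Slc9a2 and Slc9a4, the zinc exporter Slc30a1 and the extraneuronal monoamine transporter Slc22a3. A dim signal does not show that a gene was not expressed. Likewise, a mean above the limit does not show that it was, because no detection call was used.

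No member passed at 0.05 after Benjamini-Hochberg adjustment over all 6555 tested probe sets (two-sided limma fit with trended variances), where 0.320% of all tested probe sets passed, 0.275% higher and 0.0458% lower. The smallest adjusted p of a member was 0.0781, and 4 members (3.2%) were under 0.10, against 2.20% of all tested probe sets. At an unadjusted p under 0.05 there were 21 of 125 members, or 16.8%, 7 above and 14 below the sedentary level. The share over all tested probe sets was 16.2%, with 9.26% higher and 6.91% lower, so the members' total was near the background. The split of the members was 5.6% higher and 11.2% lower. An exact permutation test over the 924 splits of the 12 arrays gave 26 members (20.8%) at an unadjusted p under 0.05, against 17.6% of all tested probe sets, and none after adjustment over all tested probe sets, and no probe set of the whole table passed after adjustment by that test. For no member did the 6 exercised values lie wholly above or wholly below the 6 sedentary values, as they did for 2.07% of all tested probe sets, 1.50% higher and 0.580% lower. By sign, 57 members were above 0 and 68 below, or 45.6% higher against 51.4% over all tested probe sets, and their median difference was -0.0089 against 0.0027.

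The differences were small. The members ran from -0.35 for Slc41a3 to 0.28 for Slc25a30, and 2 of 125 exceeded 0.25 in size. The 95% interval of the difference lay within ±0.25 log2 for 105 members (84.0%), against 71.5% of all tested probe sets, and within ±0.5 for 123. The median SD within groups was 0.090 log2 for the members and 0.099 for all tested probe sets.

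**Figure D1:**
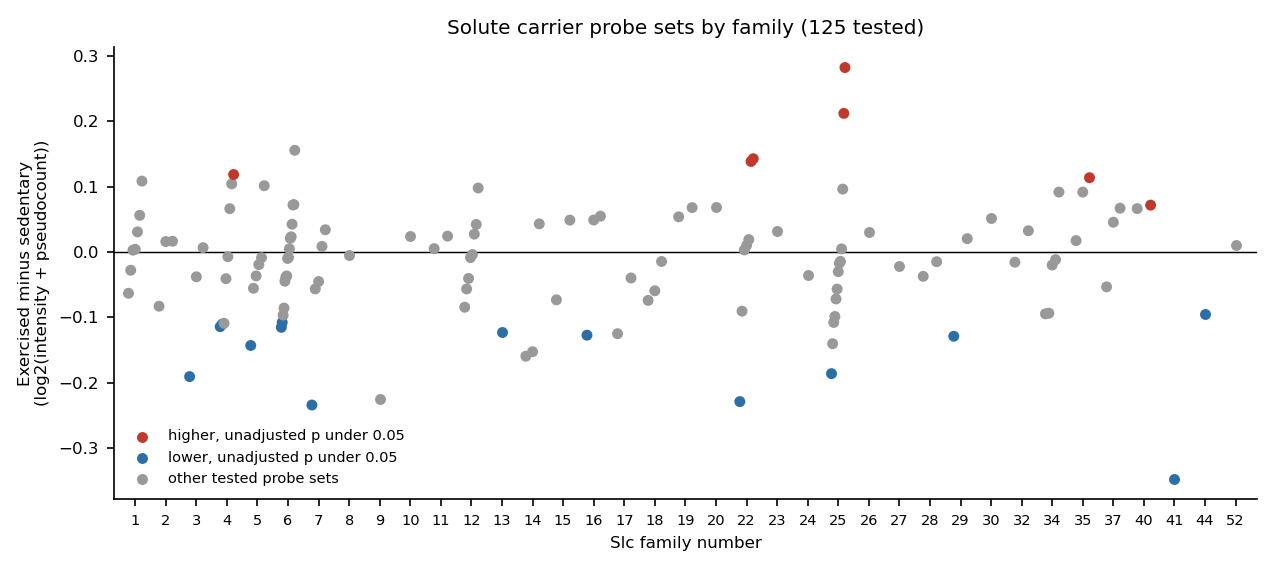
Difference of each of the 125 tested solute carrier probe sets (points), exercised minus sedentary on the log2 scale, by Slc family number; colours mark an unadjusted limma p under 0.05. The points cluster around 0, with Slc41a3 at -0.35 and Slc25a30 at 0.28 as the extremes, and no member passed after adjustment.

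By family number, no family had more than 2 probe sets at an unadjusted p under 0.05 in either direction. Family 6, the sodium- and chloride-coupled carriers of neurotransmitters, was the largest with 16 tested probe sets, 7 above 0 and 9 below, 0 and 2 of them at an unadjusted p under 0.05. Family 25 had 13 tested probe sets, with 2 higher and 1 lower at that level. Family 4, the bicarbonate carriers, had 1 higher and 2 lower of 8, family 22 had 2 higher and 1 lower of 7, and family 12, the cation-chloride cotransporters, had 0 of 8. In families 1 (glutamate) and 34 (phosphate), with 7 and 5 tested probe sets, the count was 0 too. Families 5, 3, 7, 13, 16, 29, 41 and 44 each had 1 lower and none higher, and families 35 and 40 each had 1 higher and none lower.

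Over the members, a single array of the sedentary group stood apart. On sedentary 17 the members deviated from their group mean by 0.21 log2 (root mean square), against 0.062 to 0.093 on the other 11 arrays, and its mean correlation with the other arrays over the members was 0.944, against 0.982 to 0.987. Over all tested probe sets that deviation was 0.222 on sedentary 17 and 0.084 to 0.114 on the others, so the array's distance was not limited to transporters. It was the array farthest from the rest of its own group for 60 of 125 members. Without it the median SD within groups was 0.064, 33 members changed sign, and 50 were above 0 and 75 below. Then 1 member (0.8%) passed an adjusted p of 0.05, Slc41a3 (-0.41, limma adjusted p = 0.0358), against 0.366% of all tested probe sets. Sedentary 17 held the lowest sedentary value of Slc41a3, so leaving it out had to enlarge that difference. Of the 21 members at an unadjusted p under 0.05, 13 were also under it without sedentary 17, where 13.6% of members and 16.8% of all tested probe sets were.

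**Figure D2:**
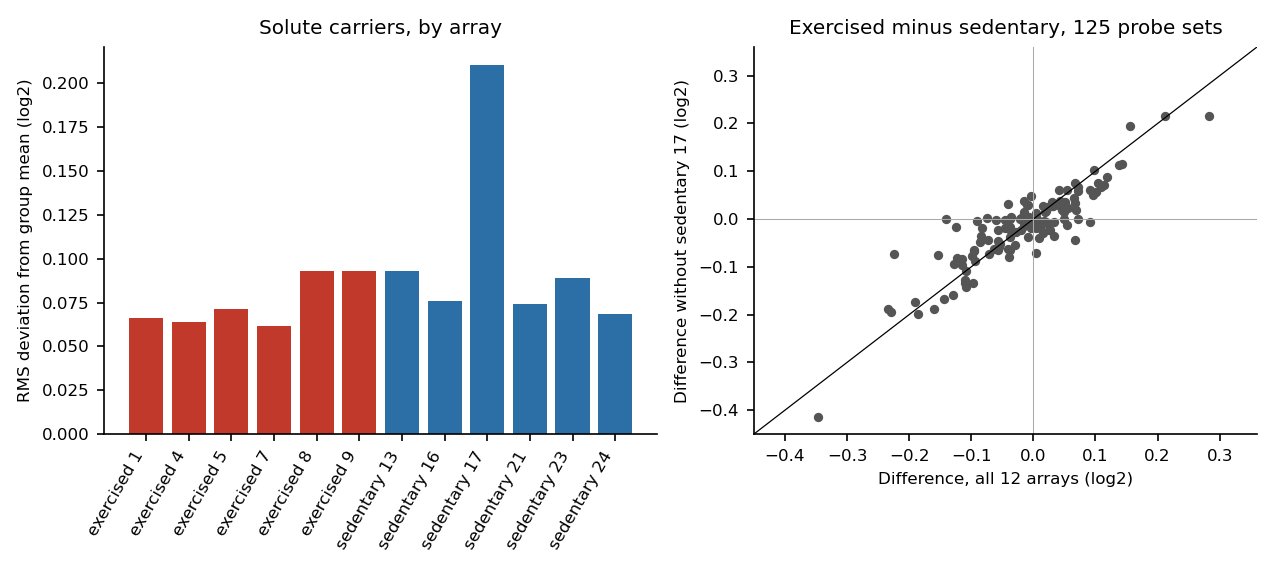
Left, root mean square deviation of the 125 tested members from their group mean on each array (log2; red exercised, blue sedentary), at 0.21 on sedentary 17 and at most 0.093 on the others. Right, each member's difference on all 12 arrays against that without sedentary 17, with the line of equality; 33 members changed sign, and Slc41a3 moved from -0.35 to -0.41.

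Slc41a3 and Slc22a2, the 2 lower members of smallest p, and Slc22a18, a higher member of the same organic ion family, are shown by the 300 bases around their start (250 before and 50 after it, rat build GRCr8), because they set 2 genes of family 22 with opposite signs beside the member of largest size. The sequences are those of RefSeq and lie at chr4:124684717-124685016, plus strand, chr1:50710970-50711269, minus strand and chr1:208100923-208101222, plus strand. Capitals mark an E-box (CACGTG), the site bound by clock and Myc family factors; the GC box (GGGCGG) and the TATA box (TATAAA) were searched too, on both strands.
Slc41a3: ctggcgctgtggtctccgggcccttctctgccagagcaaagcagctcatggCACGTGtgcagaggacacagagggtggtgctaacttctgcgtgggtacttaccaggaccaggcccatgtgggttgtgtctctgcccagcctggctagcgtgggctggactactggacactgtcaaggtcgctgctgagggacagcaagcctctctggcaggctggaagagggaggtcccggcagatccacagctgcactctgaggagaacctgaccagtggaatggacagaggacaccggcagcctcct
Slc22a2: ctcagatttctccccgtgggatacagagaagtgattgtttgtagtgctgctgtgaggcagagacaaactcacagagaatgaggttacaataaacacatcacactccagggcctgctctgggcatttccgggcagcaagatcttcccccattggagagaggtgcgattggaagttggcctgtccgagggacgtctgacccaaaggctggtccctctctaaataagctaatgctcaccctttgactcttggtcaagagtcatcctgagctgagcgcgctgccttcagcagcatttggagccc
Slc22a18: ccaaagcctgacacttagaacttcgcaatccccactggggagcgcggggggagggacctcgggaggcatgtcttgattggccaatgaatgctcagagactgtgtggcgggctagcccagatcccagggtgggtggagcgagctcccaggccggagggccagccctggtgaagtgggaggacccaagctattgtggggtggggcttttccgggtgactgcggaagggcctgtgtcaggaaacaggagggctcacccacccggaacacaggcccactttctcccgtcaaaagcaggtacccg
Slc41a3 held 1 E-box, which overlapped no other match, and no GC or TATA box, and neither of the others held any of these letters in the window. Of the 112 member genes 94 had an entry, and 10.6% of them held an E-box, 53.2% a GC box and 9.57% a TATA box, against 6.65%, 34.9% and 14.3% of all 27457 promoters. The member windows were also richer in G and C, with a median of 59.2% against 52.3%, and held a median of 16.5 CpG against 7. Slc25a26 and Slc25a30 had no entry. A match is a description of the letters and not a site of binding.

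The mitochondrial carriers of family 25 held the member of smallest p, Slc25a26. All 13 of their probe sets were tested, for 9 genes, with 4 above 0 and 9 below, a median of -0.030 and none past the adjusted threshold. Slc25a26 imports S-adenosylmethionine, the methyl donor, into the matrix. It had lowest, median and highest intensities of 1844, 2017 and 2171 in the sedentary and 2097, 2386 and 2560 in the exercised samples. The other exercised samples lay above every sedentary sample while exercised 1, at 2097, lay within the sedentary range, and the difference was 0.21 ± 0.050 (SE, limma adjusted p = 0.0781). Its exact permutation p was 0.00433. Without exercised 1 the difference was 0.24 and passed (limma adjusted p = 0.0437), but leaving out the lowest exercised sample had to raise it. Slc25a26 passed with no other single array left out. Its difference was 0.19 without exercised 5, and 0.18 without exercised 4 and 5 (limma adjusted p = 0.249).

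Slc25a30, a carrier related to the uncoupling proteins, had lowest, median and highest intensities of 1110, 1524 and 2011 in the sedentary and 1580, 2026 and 2072 in the exercised samples. Sedentary 13, at 2011, lay above exercised 1 and 9, at 1580 and 1669, and the difference was 0.28 ± 0.098 (SE, limma adjusted p = 0.176). Without sedentary 17, the lowest sample, it was 0.22. The citrate carrier Slc25a1, which exports citrate for fatty acid synthesis, had lowest, median and highest intensities of 2464, 2697 and 3034 in the sedentary and 2245, 2330 and 2538 in the exercised samples. Exercised 9 was the only exercised sample within the sedentary range, and the difference was -0.19 ± 0.056 (SE, limma adjusted p = 0.130), with an exact permutation p of 0.00649.

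Slc25a3, which brings phosphate to the ATP synthase, had lowest, median and highest intensities of 30987, 33519 and 34585 in the sedentary and 30530, 31491 and 33166 in the exercised samples, a difference of -0.072 ± 0.037 (SE, limma adjusted p = 0.361). The groups overlapped through sedentary 13, 17 and 23, and exercised 8 was the highest exercised sample. The oxoglutarate carrier Slc25a11 of the malate-aspartate shuttle gave -0.11 ± 0.065 (SE, limma adjusted p = 0.420) on rc_AA859975_at and 0.0046 ± 0.095 on U84727_at. The latter turned to -0.072 without sedentary 17. Slc25a23, an ATP-magnesium and phosphate carrier regulated by calcium, gave -0.14 ± 0.12 (SE, limma adjusted p = 0.585), and it read 2318 on sedentary 17 against 1036 to 1233 on the other 11 arrays. Without sedentary 17 its difference was -0.00087. The remaining carriers, Slc25a10, Slc25a14 and the peroxisomal Slc25a17, lay between -0.099 and 0.096.

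**Figure D3:**
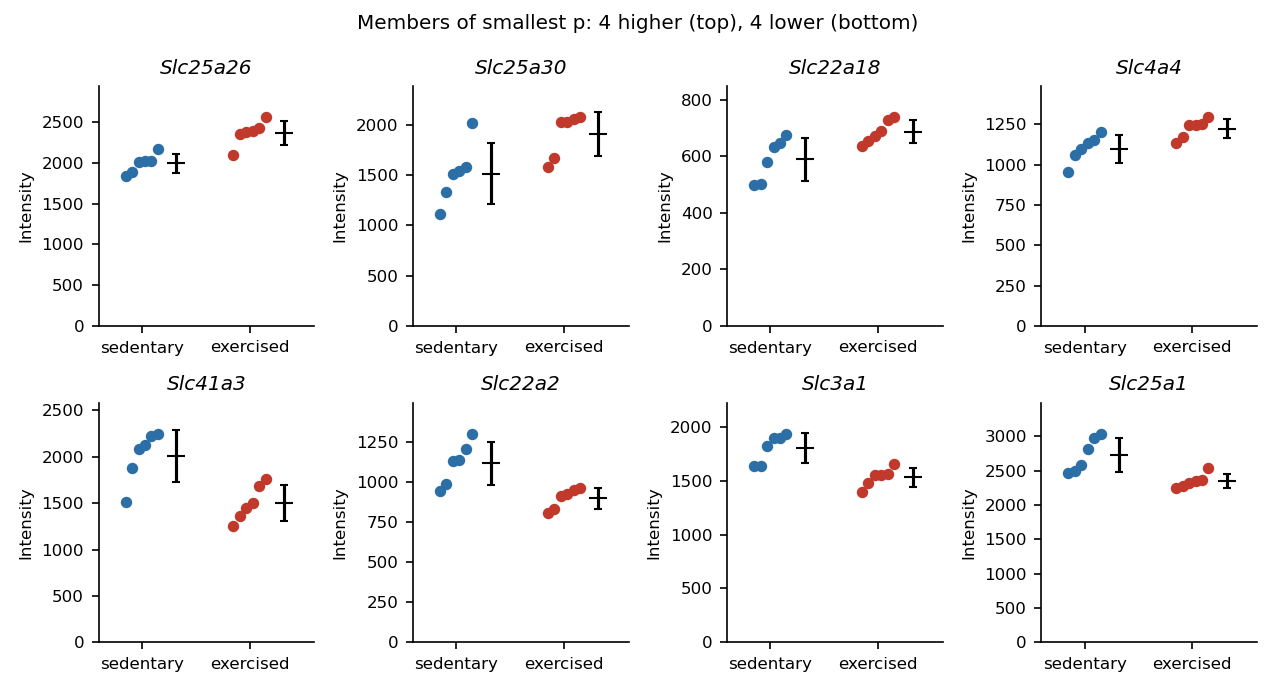
Intensity of the 4 higher (top) and 4 lower (bottom) members of smallest p in each sample (points) with mean ± SD (black, n = 6 per group), on axes that start at 0. In all 8 the exercised samples lie on one side of the sedentary mean, and in each the groups overlap.

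Metal ion carriers gave 6 tested probe sets for 4 genes, with 5 above 0 and 1 below, and none passed. Slc41a3, a magnesium transporter, had the largest difference of all members. It had lowest, median and highest intensities of 1511, 2104 and 2248 in the sedentary and 1257, 1472 and 1755 in the exercised samples, a difference of -0.35 ± 0.086 (SE, limma adjusted p = 0.0888). Sedentary 17, at 1511, was the only sedentary sample within the exercised range of 1257 to 1755, and the exact permutation p was 0.00866. The related Slc41a2 was too dim to be tested. The iron exporter ferroportin, Slc40a1, gave 0.072 ± 0.032 (SE, limma adjusted p = 0.284) and 0.066 ± 0.054 on its 2 probe sets, or 0.058 and 0.034 without sedentary 17. On the first it had lowest, median and highest intensities of 457, 504 and 522 in the sedentary and 506, 537 and 579 in the exercised samples. Of the 7 tested macrophage and leukocyte markers, 2 were above 0 and 5 below, with a median of -0.042, and lysozyme, Lyz2, rose from 2401 ± 297 to 5421 ± 2104 (SD, n = 6, limma adjusted p = 0.0404). Their summed intensity over 9 genes, Lyz2 included, was 17314 to 19367 in sedentary and 18775 to 24909 in exercised samples. Lyz2 alone ran from 2000 to 2854 in sedentary and from 3274 to 9078 in exercised samples, so the higher sums cannot be read apart from it. The part of these cells in the Slc40a1 difference was not tested. The iron importer Slc11a2 gave 0.024 and 0.0050, with a limma adjusted p of 0.801 and 0.957.

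Carriers of organic ions, bile acids and lipids gave 10 tested probe sets, 6 above 0 and 4 below, with a median of 0.0063, and -0.0032 without sedentary 17. Within family 22, members lay on both sides of 0. Slc22a2, the organic cation transporter known best from the kidney, had lowest, median and highest intensities of 942, 1134 and 1300 in the sedentary and 804, 917 and 962 in the exercised samples. The exercised values lay between 804 and 962 and overlapped that of sedentary 13 alone, and the difference was -0.23 ± 0.058 (SE, limma adjusted p = 0.0916), or -0.19 without sedentary 17. Slc22a18, an organic cation carrier of an imprinted region, had lowest, median and highest intensities of 498, 606 and 676 in the sedentary and 635, 680 and 738 in the exercised samples, with a difference of 0.14 ± 0.051 (SE, limma adjusted p = 0.182). The organic anion transporter Slc22a6 gave 0.14 ± 0.064 (SE, limma adjusted p = 0.301). The carnitine transporter Slc22a5, on which fatty acid oxidation in the myocyte depends, went from 1110 ± 70.7 to 1121 ± 90.4 (SD, n = 6), and its difference of 0.0097 had a 95% interval of -0.091 to 0.11, with -0.0032 without sedentary 17. The choline transporter-like Slc44a4 gave -0.095 ± 0.042 (SE, limma adjusted p = 0.276).

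Amino acid and peptide carriers gave 17 tested probe sets for 11 genes, 9 above 0 and 8 below, with a median of 0.0026, and -0.028 without sedentary 17. The lowest differences were those of Slc7a2 and Slc3a1. Slc3a1, a heavy chain that pairs with a light chain to take up cystine and dibasic amino acids, had lowest, median and highest intensities of 1634, 1856 and 1934 in the sedentary and 1398, 1552 and 1658 in the exercised samples. Only exercised 1 reached the sedentary range, and the difference was -0.19 ± 0.050 (SE, limma adjusted p = 0.0925), with an exact permutation p of 0.00649. The arginine transporter Slc7a2 went from 1587 ± 207 to 1296 ± 192 (SD, n = 6), a difference of -0.23 ± 0.081 (SE, limma adjusted p = 0.173), and exercised 5, at 1654, lay among the sedentary samples. Its relative Slc7a1 gave -0.057 ± 0.035 (SE, limma adjusted p = 0.429) and -0.045 ± 0.052 on its 2 probe sets, and without sedentary 17 -0.065 and -0.0030. The third cationic carrier measured, Slc7a3, gave 0.034, or -0.036 without that array.

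The heavy chain Slc3a2 and the light chain Slc7a5, which together exchange large neutral amino acids, gave no difference beyond their spread. Slc3a2 gave -0.038 ± 0.045 (SE, limma adjusted p = 0.686) and 0.0065 ± 0.036, and Slc7a5 gave 0.0084 ± 0.054 (SE, limma adjusted p = 0.951) with a 95% interval of -0.11 to 0.12, or -0.039 without sedentary 17. Among glutamate carriers Slc1a1 gave -0.063 ± 0.030 (SE, limma adjusted p = 0.315) on its dimmer and 0.0026 on its other tested probe set, Slc1a6 gave 0.11 ± 0.052 (SE, limma adjusted p = 0.328) or 0.067 without sedentary 17, and 4 probe sets of Slc1a2 lay between -0.028 and 0.056.

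Carriers of neurotransmitters, taurine and creatine gave 23 tested probe sets for 18 genes, 8 above 0 and 15 below, with a median of -0.016. The serotonin transporter Slc6a4 had lowest, median and highest intensities of 1457, 1517 and 1563 in the sedentary and 1293, 1386 and 1488 in the exercised samples. Exercised 1 alone overlapped the sedentary samples, and the difference was -0.11 ± 0.037 (SE, limma adjusted p = 0.171), and its other probe set gave -0.037. The noradrenaline transporter Slc6a2 gave -0.12 ± 0.050 (SE, limma adjusted p = 0.268) on Y13223cds_at and 0.023 ± 0.047 on L29573_s_at, so the probe sets differ in sign. Without sedentary 17 they gave -0.083 and -0.0095. Of the 5 tested markers of nerve and Schwann cells, Th, Syp and S100b were above 0 and Dbh and Nefl below on the brightest probe set of each, and their median was 0.0058. The other tested probe sets of S100b and Nefl were lower, at -0.13 and -0.14 (limma adjusted p = 0.176 and 0.352). For that of Nefl, sedentary 17 read 954 against 566 to 668 on the other sedentary arrays. The part of nerve cells in the Slc6a2 differences was not tested. The taurine transporter Slc6a6 ran from 281 to 521 in sedentary and 292 to 694 in exercised samples (0.16, limma adjusted p = 0.481). The creatine transporter Slc6a8, which supplies the phosphocreatine pool, had lowest, median and highest intensities of 2311, 2683 and 2970 in the sedentary and 2128, 2350 and 3039 in the exercised samples. Exercised 8 and 9 lay at 3039 and 2826 and the other 4 exercised samples at 2128 to 2384, and the difference was -0.097 ± 0.080 (SE, limma adjusted p = 0.557).

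Exchangers and cotransporters of ions and pH gave 20 tested probe sets for 14 genes, 7 above 0 and 13 below, with a median of -0.0081. The sodium-bicarbonate cotransporter Slc4a4, which loads the myocyte with base, had lowest, median and highest intensities of 953, 1114 and 1201 in the sedentary and 1135, 1244 and 1293 in the exercised samples. All exercised samples lay above the sedentary mean, with overlap through sedentary 13 and 24, and the difference was 0.12 ± 0.045 (SE, limma adjusted p = 0.215), or 0.088 without sedentary 17. The anion exchanger Slc4a3 of the heart went from 3314 ± 148 to 3498 ± 356 (SD, n = 6), a difference of 0.066 ± 0.062 (SE, limma adjusted p = 0.607). Its relative Slc4a2 gave 0.10 ± 0.050 (SE, limma adjusted p = 0.321) on J05166_at and -0.041 on J05166_g_at. The chloride importer Slc12a2 also gave opposite signs, 0.098 and -0.085 (limma adjusted p = 0.342 and 0.413), and the latter was -0.036 without sedentary 17. The potassium-chloride cotransporter Slc12a7 gave -0.0087 ± 0.060 (SE, limma adjusted p = 0.956), or -0.037 without sedentary 17, and Slc12a4 gave -0.041 ± 0.075 (SE, limma adjusted p = 0.800), which turned to 0.031 without sedentary 17. The exchanger Slc9a3 gave -0.23 ± 0.14 (SE, limma adjusted p = 0.420), and sedentary 17, at 1361, lay above the rest of its group (505 to 647). Leaving it out gave -0.074.

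Slc4a1 is band 3, the anion exchanger of the red cell membrane, and its 3 probe sets gave -0.11 each, with limma adjusted p of 0.330, 0.265 and 0.261. On J04793_at it had lowest, median and highest intensities of 2441, 2648 and 3067 in the sedentary and 2295, 2487 and 2508 in the exercised samples. Sedentary 23 was the highest sample on all 3 probe sets, at 3067, 1517 and 876. For the haemoglobin gene Hbb, whose product fills the red cell, exercised 4 (15784) and exercised 5 (8786) were below the range of 28362 to 37795 on the remaining arrays. Slc4a1 on these 2 arrays was among the 3 highest exercised values on each probe set. Without exercised 4 and 5 the Slc4a1 differences were -0.12, -0.13 and -0.14. The summed intensity of the 3 measured erythroid markers, Slc4a1 among them, was 37211 to 42376 in sedentary and 13476 to 38361 in exercised samples, most of it Hbb. The other marker, Alas2, the enzyme that starts haem synthesis in red cell precursors, was below the sedentary mean in all 6 exercised samples (-0.28 ± 0.099 SE, limma adjusted p = 0.182). The part of red cell RNA in the Slc4a1 differences was not tested. The urea transporter Slc14a1, which red cells also carry, gave -0.16 ± 0.12 (SE, limma adjusted p = 0.516) and -0.15 ± 0.076 on its 2 probe sets, or -0.19 and -0.16 without exercised 4 and 5 and -0.19 and -0.076 without sedentary 17. On the former exercised 8 read 1840 and exercised 9 read 3822, the extremes of all 12 arrays.

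**Figure D4:**
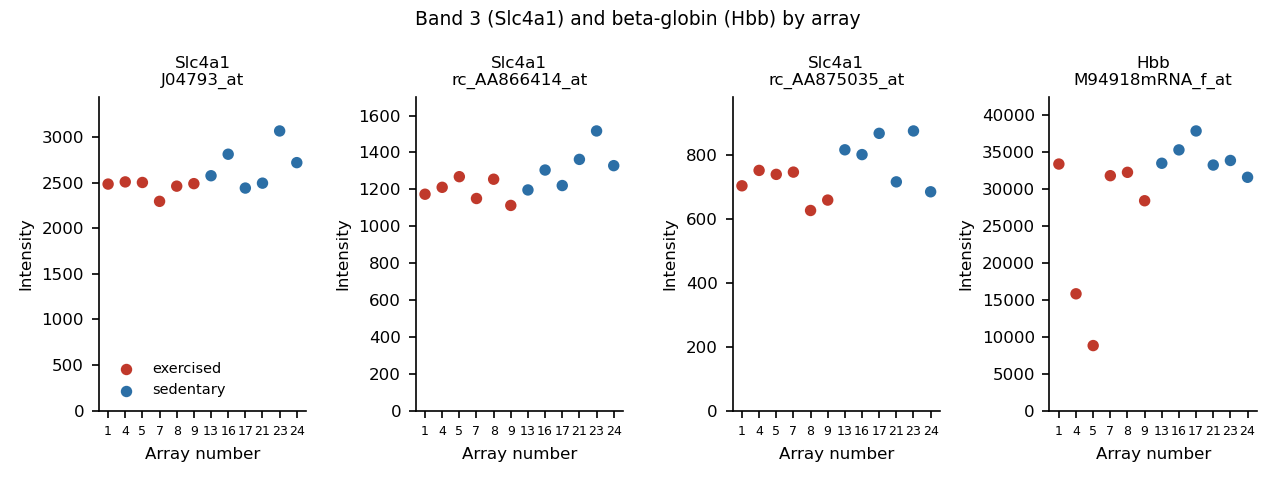
Intensity on each array (red exercised, blue sedentary) of the 3 Slc4a1 probe sets and of Hbb. Hbb lay below its other samples on exercised 4 and 5 alone (15784 and 8786, all others at least 28362), while Slc4a1 on these 2 arrays was among the 3 highest exercised values.

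Carriers of sugars, monocarboxylates and vitamins gave 22 tested probe sets for 16 genes, 12 above 0 and 10 below, with a median of 0.013, and -0.015 without sedentary 17. The iodide transporter Slc5a5, known from the thyroid, gave -0.14 ± 0.054 (SE, limma adjusted p = 0.206) and the lactate exporter Slc16a3 -0.13 ± 0.056 (SE, limma adjusted p = 0.275), or -0.094 without sedentary 17. Slc16a3 had lowest, median and highest intensities of 888, 989 and 1199 in the sedentary and 832, 931 and 958 in the exercised samples. The folate carrier Slc19a1 gave 0.068 ± 0.035 (SE, limma adjusted p = 0.360) and 0.054 on its 2 probe sets, and the kidney urea transporter Slc14a2 0.043 ± 0.075 (SE, limma adjusted p = 0.786), or -0.029 without exercised 4 and 5. The fructose transporter Slc2a5 gave 0.016 on both probe sets, but without sedentary 17 D13871_s_at gave -0.030 and D28562_s_at gave 0.028.

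Carriers of nucleosides and nucleotide sugars gave 7 tested probe sets, 4 above 0 and 3 below, with a median of 0.017, and -0.0039 without sedentary 17. The adenosine transporter Slc29a1, which clears adenosine from the space around the myocyte, went from 1662 ± 110 to 1690 ± 105 (SD, n = 6), a difference of 0.020 ± 0.049 (SE, limma adjusted p = 0.850) with a 95% interval of -0.084 to 0.12, or -0.0062 without sedentary 17. Its relative Slc29a2 had lowest, median and highest intensities of 2977, 3394 and 3668 in the sedentary and 2756, 3037 and 3189 in the exercised samples, a difference of -0.13 ± 0.054 (SE, limma adjusted p = 0.253). Exercised 1, 5, 8 and 9 lay within the sedentary range, which reached down to 2977 through sedentary 17, and without that array the difference was -0.16. Slc35a1, which carries CMP-sialic acid into the Golgi, gave 0.11 ± 0.051 (SE, limma adjusted p = 0.282), or 0.071 without sedentary 17. Carriers of phosphate, sulfate and dicarboxylates gave 7 tested probe sets, 2 above 0 and 5 below. The phosphate transporter Slc20a2 gave 0.069 ± 0.056 (SE, limma adjusted p = 0.553), or 0.020 without sedentary 17, and the dicarboxylate transporter Slc13a2 -0.12 ± 0.055 (SE, limma adjusted p = 0.282), or -0.081 without it. The kidney phosphate transporter Slc34a1 had 5 tested probe sets, between -0.095 and 0.092.

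A panel of 25 solute carriers was listed by name, some for their known part in the heart and some with earlier results of these data in view. Of these, 3 were not analysed here, and Slc1a3 and Slc30a1 were too dim. The other 20 genes had 27 tested probe sets, 14 above 0 and 13 below, with a median of 0.0026. The 95% interval lay within ±0.25 for 22 of the 27, against 71.5% of all tested probe sets. It left out 0 for 5 of the 27, Slc4a4 above and Slc41a3, Slc22a2, Slc25a1 and Slc16a3 below. An interval that leaves out 0 is an unadjusted limma p under 0.05, which 16.2% of all tested probe sets had. These intervals are for single probe sets and carry no adjustment.

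**Figure D5:**
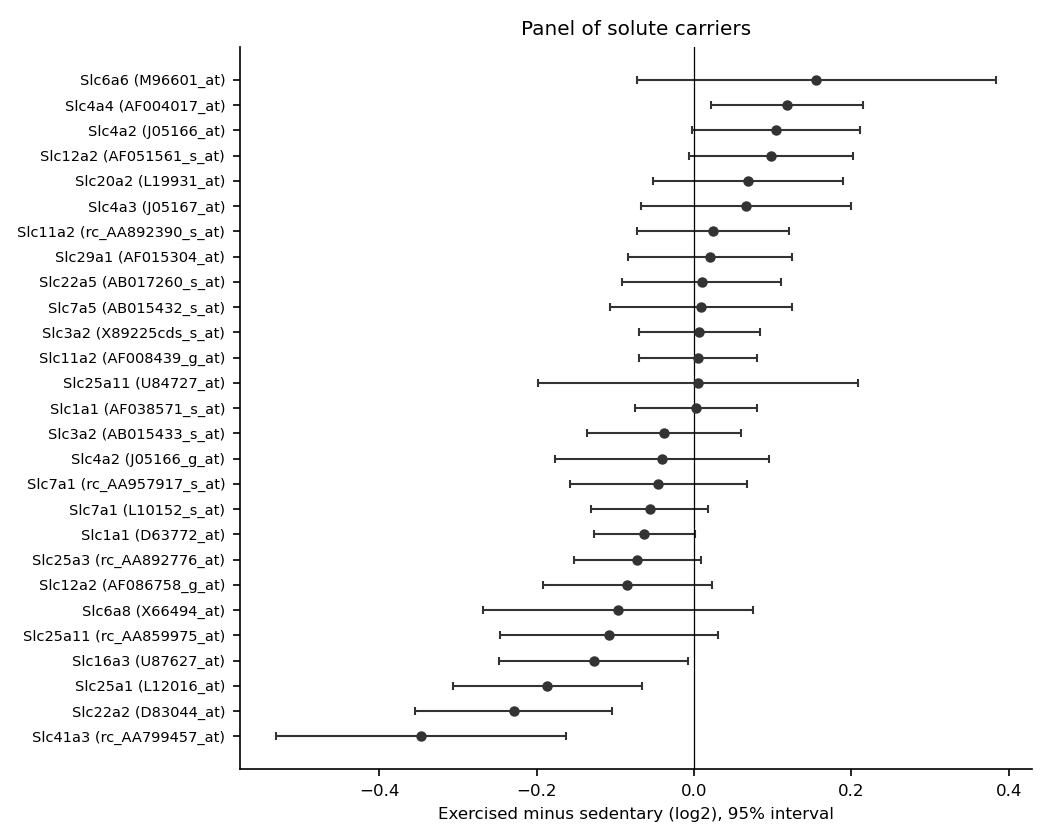
Difference of the 27 tested panel probe sets with its 95% interval from the limma fit (log2, exercised minus sedentary, n = 6 per group), sorted by size. The intervals of 22 lie within ±0.25, as do those of 71.5% of all tested probe sets, and Slc41a3 lies lowest at -0.35.

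Several probe sets of a gene often disagreed. Of 28 member genes with more than 1 tested probe set, all probe sets had the same sign for 14 and opposite signs for the other 14. With group means removed, the correlation over the 12 arrays between probe sets of the same gene ran from -0.66 within Slc34a1 to 0.91 within Slc35b1, and 5 of the 24 genes with a pair of probe sets exceeded 0.5. These were Slc11a2, Slc18a3, Slc25a11, Slc35b1 and Slc37a4. These correlations share arrays and are given as a description. Probe sets ending in _s_at can share signal between related transcripts, so the identity of those, as for Slc3a1 and the X63253cds_s_at probe set of Slc6a4, is less certain. Counting only the probe set of highest mean for each of the 90 tested genes gave 41 above 0 and 49 below, with 17 (18.9%) at an unadjusted p under 0.05, against 16.2% of all tested probe sets. Of the 17, 6 were higher (6.67% against 9.26%) and 11 lower (12.2% against 6.91%), and none was past the adjusted threshold.

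The 8 solute carrier genes left out by the rule had 5 above 0 and 3 below on their brightest probe sets, with a median of 0.056 and none past the threshold. Of 28 tested genes for other membrane transport proteins, among them ABC transporters, aquaporins, uncoupling proteins and the Slco family, the uncoupling protein Ucp2 fell (-0.45, limma adjusted p = 0.0404), and no other passed. By sign 11 of the 28 were above 0 and 17 below, with a median of -0.021. Among 8 genes of carbonic anhydrases, which supply bicarbonate to exchangers, and of adaptors that hold transporters at the membrane, none passed, 4 were above 0 and 4 below, and the membrane linker Ezr gave 0.19 (limma adjusted p = 0.0910). All 11 measured cardiomyocyte markers were tested, with 9 above 0 and 2 below on the brightest probe set of each and a median of 0.039. Among them Csrp3 rose (0.58 ± 0.10 SE, limma adjusted p = 0.0302). The summed intensity of the 11 was 391292 to 423590 in sedentary and 401722 to 430295 in exercised samples. On the brightest probe set of each gene, fibroblast markers had 8 of 9 tested genes above 0 (sums of 39851 to 53777 and 50045 to 76821), smooth muscle markers 5 of 5 and endothelial markers 2 of 5. Over all tested probe sets 51.4% were above 0. The smooth muscle markers include Des, by far their brightest (means of 14014 and 16279), and its signal need not come from smooth muscle alone. Of Acta2 (0.34), the other probe sets gave -0.051 and 0.060. The sum of the 4 atrial myocyte markers was 51178 on sedentary 16, 22481 to 27152 on the other sedentary arrays and 24360 to 43734 on the exercised arrays. On sedentary 16 the atrial light chain Myl7 (rc_AA891242_at) read 8652, against 1136 to 1923 on the other sedentary arrays. The part of all these cell types in the transporter differences was not tested.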

How the data were processed

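The values are the linear intensity per probe set on 12 arrays as deposited by the authors in the series' value table. How the arrays were scanned, background-corrected and scaled was not given in the sources used here. Array medians lay between 840 and 875, and the deposited scaling was kept. Equal medians hide any change in total RNA per cell.

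Arrays were grouped by their titles, without batch or pairing. Negative values were set to 0, the 20th percentile of the table (363) was added as a pseudocount, and log2 values were fitted with limma 3.58.1 (R 4.3.3, lmFit and eBayes with trend) over the 6555 probe sets with a mean above the 25th percentile. An exact permutation test over arrays stands beside it. The code was tested on simulated data with independent noise and no outlying array. That check served the code alone and is not used here as a measure of the power to find small differences.

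Symbols came from the platform's annotation (7006 probe sets with 1 symbol, 308 with several, 1426 with none), and all 166 member probe sets matched RefSeq by Entrez ID. Named members were those past the threshold, the 12 of smallest p in each direction, the 8 of highest mean intensity and the measured members of the panel. Further members given by value, such as Slc9a3, Slc14a1, Slc25a23 and Slc44a4, fall outside this rule and were picked with their values in view. Members, panel, roles and lists were chosen with earlier results of these data known. Alternatives were other pseudocounts, filters, scalings, eBayes settings, array weights and arrays left out. The number of arrays limits the precision.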

Additional observations from a re-analysis of the deposited data

Results flagged for a closer look

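Of 94 groups checked for the named members, 6 held a single sample far from the other 5 by Dixon's gap criterion, and each time it was sedentary 17. It was above the other sedentary samples for Slc12a4 (4982 against 3475 to 3697) and the probe set AF086758_g_at of Slc12a2 (712 against 491 to 544). It was below them for Slc7a5 (1373 against 1718 to 1848), Slc20a2 (1341 against 1625 to 1808), Slc25a10 on rc_AA859666_i_at (530 against 672 to 763) and Slc1a6 (361 against 477 to 536). Over all tested members the criterion marked 26 of 250 groups, or 10.4%, where chance gives about 5%, and 21 of the 26 were sedentary 17.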

How the results depend on the processing

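No member passed the adjusted threshold under 8 of the 9 other pseudocounts, filters, scalings and fits. With array weights 3 members (2.4%) passed, against 2.44% of all tested probe sets, Slc41a3 (-0.39, limma adjusted p = 0.0170, from 0.0170 to 0.222 over its alternatives) and Slc22a2 (-0.20, limma adjusted p = 0.0453, from 0.0453 to 0.240 over its alternatives) lower and Slc25a26 (0.21, limma adjusted p = 0.0400, from 0.0400 to 0.249 over its alternatives) higher. Leaving out an array gave 0 to 1 members (at most 0.806%, against 0.0458% to 0.564% of all tested probe sets). These were Slc25a26 without exercised 1 and Slc41a3 without sedentary 17. In both, the array left out was the only 1 of its group within the range of the other group. The number at an unadjusted p under 0.05 was 14 to 24 with an array left out and 13 without exercised 4 and 5, where 12.3% of all tested probe sets and 10.5% of members were under it. The number of members without overlap between groups was 0 to 3 with an array left out (at most 2.42%, against 2.36% to 4.52% of all tested probe sets), 1 without sedentary 16 and 17 (0.8% against 3.59%) and 3 without exercised 4 and 5 (2.42% against 3.83%). The member median ran from -0.018 to -0.0047 with an array left out. The count with 1 probe set per gene was also 0. Of 47 named probe sets, 36 kept their sign in all 23 alternatives in which they could be fitted, and 11 turned in at least 1. With array weights, the sign turned for Slc1a1 (AF038571_s_at, -0.012), Slc3a2 (X89225cds_s_at, -0.0053), Slc7a1 (rc_AA957917_s_at, 0.0029), Slc7a5 (AB015432_s_at, -0.026), Slc12a4 (U55815_at, 0.016), Slc22a5 (AB017260_s_at, -0.020), Slc25a11 (U84727_at, -0.092). Without sedentary 16 and 17, the sign turned for Slc7a5 (AB015432_s_at, -0.045), Slc12a4 (U55815_at, 0.029), Slc25a11 (U84727_at, -0.10), Slc29a1 (AF015304_at, -0.016). Without exercised 4 and 5, the sign turned for Slc7a5 (AB015432_s_at, -0.0084), Slc14a2 (AF031642_at, -0.029). With quantile normalization, the sign turned for Slc25a11 (U84727_at, -0.030). With an array left out, the ranges of those that turned were Slc1a1 on AF038571_s_at (-0.016 to 0.018), Slc3a2 on X89225cds_s_at (-0.0089 to 0.022), Slc7a5 on AB015432_s_at (-0.039 to 0.030), Slc11a2 on AF008439_g_at (-0.0050 to 0.020), Slc12a4 on U55815_at (-0.065 to 0.031), Slc12a7 on rc_AA799691_at (-0.037 to 0.020), Slc22a5 on AB017260_s_at (-0.019 to 0.032), Slc25a11 on U84727_at (-0.072 to 0.049), Slc29a1 on AF015304_at (-0.0062 to 0.042). The cause was not tested. No paired analysis was possible because the groups share no replicate numbers.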

Other observations

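Within groups, the transporters of largest spread were of 2 kinds. For Slc9a3 and Slc25a23 the within-group SD was 0.27 and 0.25 log2 and dropped to 0.087 and 0.064 without sedentary 17. For the X98399cds_s_at probe set of the urea transporter Slc14a1 and for the taurine transporter Slc6a6 it was 0.24 and 0.21 and stayed at 0.24 and 0.21 without that array, with exercised 8 and exercised 9 as the farthest arrays.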
